A study of Mus musculus with 12 samples.

Results

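Immediate early genes are described here in the brains of aged 3xTgAD mice, a triple-transgenic model of Alzheimer's disease, after treatment with the tricyclic antidepressant amitriptyline (AMI) or vehicle. The genes were chosen by symbol and not by their values: Fos, Fosb, Junb, Egr1, Egr4, Npas4, Nr4a1, Arc, Dusp1 and Btg2. The array, an Illumina mouse bead array, held 11 probes for these 10 genes, among 25697 probes for 18097 genes. Male mice received AMI at 100 µg per g of body weight in the drinking water, or drinking water without AMI. Treatment lasted 4 months, which began at the age of 14 months and ended at 18 months. The paper states that both groups were also injected daily with BrdU, a label of dividing cells, during a part of this period. AMI-treated and vehicle-treated mice went through maze, object preference and open field tests, and were killed by isoflurane and decapitation. The time between the last test and death is not given. The part of these procedures in the levels of the immediate early genes was not tested. The 4 groups, hippocampus vehicle, hippocampus AMI, cortex vehicle and cortex AMI, held 3 arrays each. All 12 arrays come from 3xTgAD mice, so that no group lacks the transgenes. The labels do not tie an array to a mouse, and p-values therefore measure the spread between these samples.

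Immediate early genes are transcribed within minutes of synaptic activity, without the synthesis of new protein, because the factors that switch them on are already present in the cell. Calcium entry through glutamate receptors and voltage-gated channels activates kinases, which phosphorylate CREB at cAMP response elements (CRE) and the partners of serum response factor at CArG boxes. Most of their transcripts decay quickly, so that their level in a dissected brain region is widely used as a record of recent neuronal activity. Many of the encoded proteins are transcription factors, while others act at the synapse or end the signal.

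The sequences upstream of the genes are shown because the genes are known to share such elements. RefSeq upstream sequences (mouse build GRCm38.p6) matched 8 of the 10 genes by symbol, and no row was found for Arc or Egr1. The last 200 bases before the transcription start are printed for 4 genes whose window lies wholly outside the annotated gene, with the CRE core (TGACG, or CGTCA on the other strand), the full CRE (TGACGTCA, which holds both cores) and TATAAA in capitals.
Fos, chr12:85473690-85473889, plus strand: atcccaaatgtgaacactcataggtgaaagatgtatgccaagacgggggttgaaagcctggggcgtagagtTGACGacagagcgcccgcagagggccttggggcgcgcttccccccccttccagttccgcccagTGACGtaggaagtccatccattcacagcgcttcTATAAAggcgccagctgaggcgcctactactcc
Junb, chr8:84978749-84978948, minus strand: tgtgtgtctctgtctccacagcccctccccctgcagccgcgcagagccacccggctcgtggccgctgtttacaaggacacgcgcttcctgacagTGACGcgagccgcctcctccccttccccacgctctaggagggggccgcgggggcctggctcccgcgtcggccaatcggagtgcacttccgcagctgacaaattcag
Egr4, chr6:85513590-85513789, minus strand: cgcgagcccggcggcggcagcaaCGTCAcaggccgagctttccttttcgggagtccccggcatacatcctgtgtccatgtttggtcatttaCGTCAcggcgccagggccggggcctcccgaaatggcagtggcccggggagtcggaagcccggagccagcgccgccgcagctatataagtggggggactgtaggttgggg
Dusp1, chr17:26508473-26508672, minus strand: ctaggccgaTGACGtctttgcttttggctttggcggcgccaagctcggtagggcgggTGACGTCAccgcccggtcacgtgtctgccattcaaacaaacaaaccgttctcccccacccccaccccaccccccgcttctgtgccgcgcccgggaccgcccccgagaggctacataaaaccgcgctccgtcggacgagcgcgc
Within 250 bases upstream, all 8 genes held the CRE core on at least 1 strand, and 17.8% of the 32851 upstream sequences in the table did. The counts include Fosb, Npas4 and Nr4a1, whose windows do not lie wholly outside the annotated gene. In Fos the core began at -129 and at -66, counted from the start. It began at -106 in Junb and at -60 in Fosb. The full CRE was found in Btg2 and Dusp1, at -166 and -143, and in 1.55% of all upstream sequences. TATAAA on the sense strand was found in Fos alone, at -33, and in 7.59% of all. None of the 8 windows held a CArG box, against 1.47% of all, and a match or its absence describes these letters only.

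The authors deposited bead signals with a detection p-value for every probe. Log2 signals were set to a common scale on which 0 is the mean of an array, and all levels below are on that scale unless bead signals are named. Levels of different genes are not compared, because probes differ in brightness. Between 49.0% and 51.7% of probes were detected per array. The hippocampal and cortical tables came separately from different software versions, so that tissue cannot be told apart from differences in array processing. Replicate 1 of both hippocampal groups stood apart from the other 4 hippocampal arrays on the first principal component (49.2% of the variance), and cortex vehicle replicate 3 lay at the far end of the first cortical component (43.3%). The hippocampal marker list (4 genes) had mean levels between 2.91 and 3.54 on hippocampal arrays and between 0.30 and 0.72 on cortical arrays.

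One probe each of Fos, Fosb, Junb, Egr1, Egr4, Npas4, Arc and Dusp1 was detected on all 12 arrays. The probes of Btg2, an antiproliferative gene, and Nr4a1, an orphan nuclear receptor, were detected on none, with bead signals from 40.6 to 61.0 and from 46.1 to 73.0. Undetected probes had median bead signals between 52.2 and 73.2 per array, so that Btg2 and Nr4a1 were at background and give no comparison. The second Npas4 probe (ILMN_2596527) was also detected on no array, with bead signals from 43.5 to 72.3, and Npas4 is described by the other probe (ILMN_1251414). The tests below cover the remaining 8 probes, 1 per gene.

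Fos encodes a subunit of the AP-1 transcription factor. Its level was -0.22, 0.40 and -0.18 on the hippocampal vehicle arrays (replicates 1 to 3) and 0.18, -0.09 and 0.41 on the hippocampal AMI arrays. In the cortex it was 0.25, 1.22 and 1.45 after vehicle and 1.48, 0.88 and 0.67 after AMI. The treatment groups overlapped in both tissues, and the lowest cortical array was vehicle replicate 1. Fos had a log2 fold change after AMI of 0.16 for the hippocampus (standard error 0.19) and 0.04 for the cortex (standard error 0.31).

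Junb, a Jun family partner in AP-1, had levels of 0.84, 1.47 and 1.48 after vehicle and 0.82, 1.22 and 1.89 after AMI in the hippocampus. Its cortical levels were 1.25, 2.0 and 1.80 after vehicle and 1.92, 1.09 and 1.13 after AMI. In the hippocampus replicate 1 was the low array of both treatments, while in the cortex replicate 1 was low after vehicle and high after AMI. The log2 fold changes were 0.05 (standard error 0.27) and -0.30 (standard error 0.26), the latter the lowest of the 8 genes in either tissue. Fosb, whose splice form accumulates with repeated stimulation, was dim, with levels from -0.51 to -0.10 in the hippocampus and from -0.32 to 0.04 in the cortex. Its log2 fold changes were 0.08 and -0.20 (standard error 0.12 for both), with overlapping groups.

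Egr1, a zinc finger transcription factor with high constitutive expression in cortex and hippocampal CA1, was detected at bead signals from 2349 to 4653 in the hippocampus and from 4407 to 6607 in the cortex. Its hippocampal levels were 4.69, 4.41 and 4.13 after vehicle and 4.73, 3.97 and 4.50 after AMI. In the cortex they were 5.36, 5.71 and 5.91 after vehicle and 5.79, 4.99 and 5.75 after AMI. Replicate 1 was the highest array of both hippocampal groups on this scale, while in bead signals it was the lowest of both (2753 and 2349), so that the order of Egr1 among hippocampal arrays depended on the scaling. Its log2 fold changes were -0.01 (standard error 0.21) and -0.15 (standard error 0.23).

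Egr4, a relative of Egr1, ranged from 1.77 to 2.20 on the hippocampal arrays and from 2.01 to 3.00 on the cortical arrays. Its log2 fold changes after AMI were -0.04 (standard error 0.12) and 0.09 (standard error 0.25). Npas4, a transcription factor that responds to neuronal calcium and shapes inhibitory synapses, ranged from -0.47 to 0.03 in the hippocampus and from -0.32 to 0.54 in the cortex. The highest Npas4 array of all was cortex AMI replicate 1, and the lowest was hippocampus vehicle replicate 1. Its log2 fold changes were 0.10 (standard error 0.14) and 0.01 (standard error 0.23), and the treatment groups of both genes overlapped in both tissues.

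Arc, an effector of synaptic plasticity that promotes endocytosis of AMPA receptors, varied most. Its bead signals in the hippocampus were 171, 622 and 424 after vehicle and 178, 486 and 688 after AMI. In the cortex they were 211, 607 and 599 after vehicle and 588, 403 and 324 after AMI. The highest bead signal was 3.64 times the lowest among the 3 hippocampal vehicle arrays, 3.86 times after AMI, 2.88 times in cortex vehicle and 1.81 times in cortex AMI. On the log2 scale Arc had levels of 1.26 ± 0.68 and 1.39 ± 0.63 in the hippocampus, after vehicle and AMI (SD, n = 3), and of 1.77 ± 1.03 and 1.61 ± 0.51 in the cortex. Its log2 fold changes were 0.13 (95% interval -0.73 to 0.98) and -0.15 (-1.21 to 0.90).

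Dusp1 encodes a phosphatase that switches off MAP kinases and so limits the response. Its hippocampal levels were 1.57, 2.36 and 2.03 after vehicle and 1.68, 1.88 and 2.23 after AMI. In the cortex they were 2.32, 2.96 and 3.53 after vehicle and 3.53, 2.59 and 2.92 after AMI. The treatment groups overlapped in both tissues, with log2 fold changes of -0.06 (standard error 0.21) and 0.08 (standard error 0.32).

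**Figure D1:**
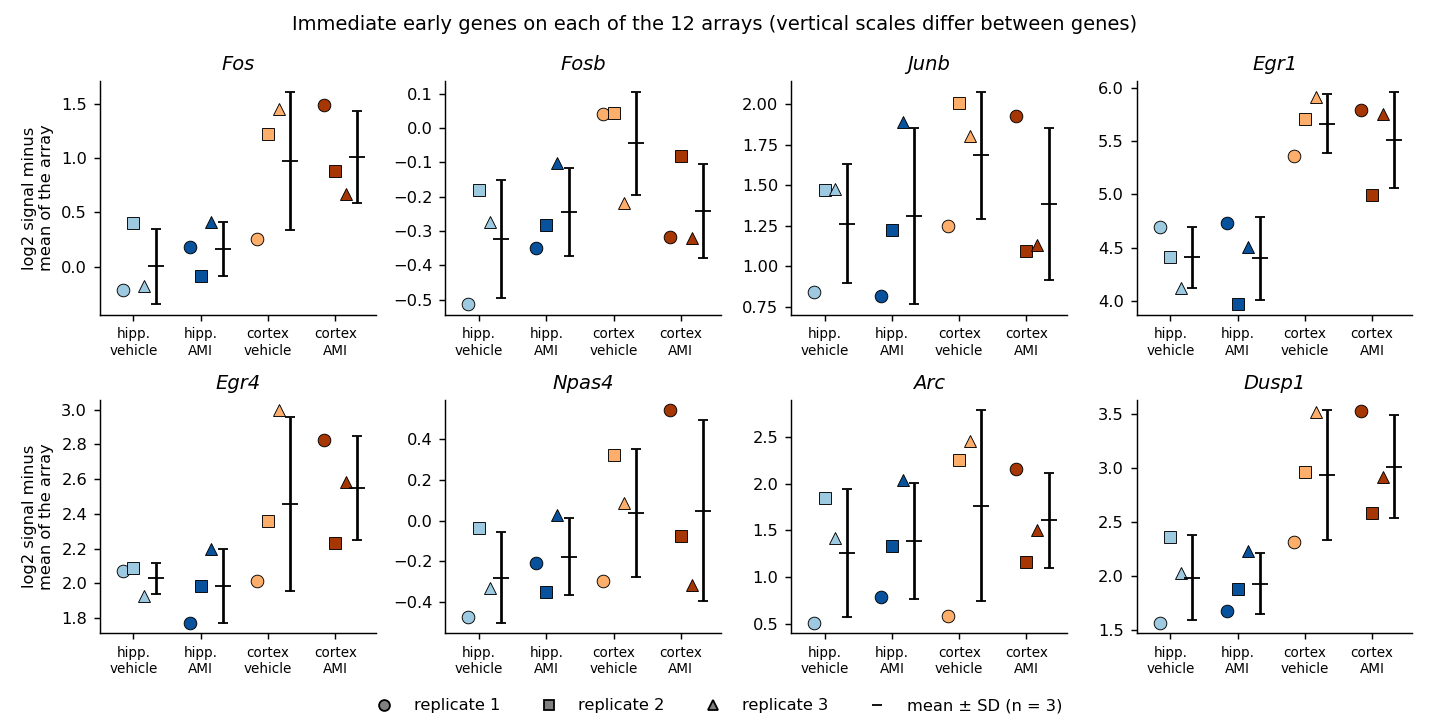
Level of each detected gene (log2 bead signal minus the mean of the array, vertical axis, 1 scale per gene) on the 12 arrays by tissue and treatment (horizontal axis); symbols mark the replicate number, and bars the mean ± SD of 3 arrays. The AMI and vehicle arrays of a tissue overlapped for all 8 genes, and Arc ranged from 0.59 to 2.46 within the cortical vehicle group.

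Whether AMI changed these genes was tested within each tissue with limma. None of the 8 genes passed an adjusted p of 0.05 in the hippocampus, where all 8 had an adjusted p of 0.9996 and 0% of 13163 probes were called. At an unadjusted p under 0.05 the count was 0 of 8 as well, against 2.35% of all probes tested. AMI and vehicle arrays did not separate for any of the 8 genes, against 7.89% of probes. The median log2 fold change of the 8 genes was 0.06, with 5 above 0 and 3 below, and that of all probes was 0.01.

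In the cortex 0 of the 8 genes passed with limma, with adjusted p-values from 0.822 (Fosb) to 0.994 (Npas4), and 0% of 12944 probes were called. The count at an unadjusted p under 0.05 was 0, against 6.28% of all probes, and 0 genes had groups that did not overlap, against 12.2%. The median log2 fold change was -0.07, with 4 genes above 0 and 4 below, and 0.02 for all probes. The methods' t-test called none of the 8 in either tissue after adjustment, and gave 0 at an unadjusted p under 0.05. Over all probes it gave 483 of 13163 in the hippocampus and 827 of 12944 in the cortex at that threshold. With each array left out in turn, and without both hippocampal arrays numbered 1, the count called stayed at 0 in both tissues. Array weights, which give less weight to arrays far from the fit, moved the cortical median to 0.45, with 3 genes at an unadjusted p under 0.05 and 0 called. In that fit 2954 of 12944 probes had an unadjusted p under 0.05, against 813 without weights, and the median of all probes was 0.01.

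The difference between the tissues in the response to AMI, tested as the interaction of tissue and treatment over 12 arrays, was called for 0 of the 8 genes (adjusted p = 0.9999 for each, limma). No probe was called in that test (0% of 12430), and at an unadjusted p under 0.05 the count was 0 of 8, against 3.03% of all probes. The interaction estimates ran from -0.13 (Dusp1) to 0.35 (Junb) on the log2 scale. The intervals show how much change these arrays leave unresolved. Over the 8 genes the lowest 95% bounds were -0.73 (hippocampus) and -1.21 (cortex), and the highest 0.98 and 0.90, all of them bounds of Arc. The narrowest intervals were those of Fosb, -0.19 to 0.35 in the hippocampus and -0.46 to 0.07 in the cortex. Fosb was dim, with bead signals from 84.7 to 163 without background correction. Its fold changes and spread are therefore compressed, and its narrow intervals do not show better precision.

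Marker lists of other cells were set beside the treatment groups, and 0 genes of any such list were called by limma in either tissue. In the cortex the striatal list (4 genes detected in both tissues) had mean levels of 2.37 to 2.48 after vehicle and 1.88 to 2.10 after AMI, and did not overlap. Among single cortical probes 12.2% did not overlap. Of the 5 striatal genes tested in the cortex 4 had a negative log2 fold change, and Gpr6 was at 0.0049. In the hippocampus 2.35% of all probes had an unadjusted p under 0.05. All 8 oligodendrocyte genes had a negative log2 fold change after AMI there (median -0.40), with 3 at an unadjusted p under 0.05. All 6 choroid plexus genes tested there had negative values as well (median -1.002, 1 at an unadjusted p under 0.05), with a mean level of 3.96 on hippocampus vehicle replicate 3 and from 0.99 to 1.49 on the other hippocampal arrays. The 3 red blood cell genes had positive values (median 0.76, 1 at an unadjusted p under 0.05), with the highest level on hippocampus AMI replicate 3 at 3.42. The neuronal list (5 genes) overlapped between treatments in both tissues. The part of these markers in the values of the immediate early genes was not tested, and in whole tissue fewer cells of a type and less RNA per cell cannot be told apart.

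**Figure D2:**
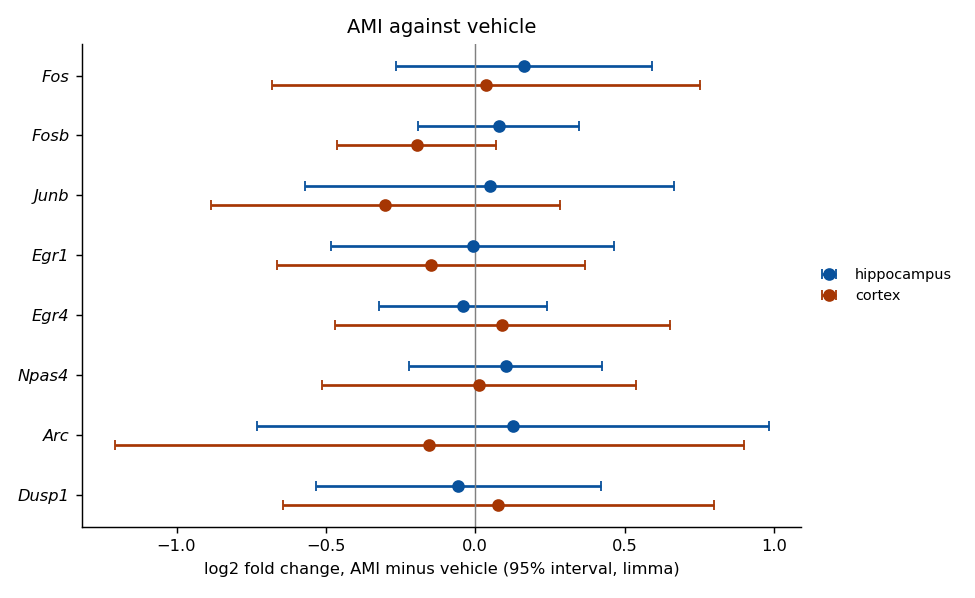
Log2 fold change of each gene, AMI minus vehicle (horizontal axis, points with 95% intervals from limma, 3 arrays per group), in the hippocampus and the cortex. Every interval includes 0, and those of Arc are the widest.

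The other genes of the pathway, from lists chosen by function, gave 0 calls with limma in either tissue. Of 36 other immediate early genes on the array, 22 were tested in each tissue. In the hippocampus 0 had an unadjusted p under 0.05 and the median log2 fold change was -0.0044, and the smallest p-values were those of Jun, with a log2 fold change of -0.24 (adjusted p = 0.9996, limma), and Nr4a2, with -0.26 (adjusted p = 0.9996, limma). In the cortex 3 had an unadjusted p under 0.05, against 6.28% of all probes. The smallest p-values were those of Nr4a2, with a log2 fold change of 0.39, and Zfp36, with 0.27 (adjusted p = 0.756 for both, limma). The third was Per1, in the other direction, with -0.49 (adjusted p = 0.756, limma). Zfp36 encodes a protein that destabilises short-lived mRNAs.

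Among the receptors, kinases and transcription factors upstream, 24 genes were tested in hippocampal and 23 in cortical tissue, with medians of -0.02 and -0.02. The smallest p-values were those of the MAP kinase kinase Map2k2 (log2 fold change -0.19) and serum response factor, Srf (0.13), in the hippocampus, with an adjusted p of 0.9996 from limma for both. In the cortex they were those of the calcium-dependent kinases Camkk2 (0.40, adjusted p = 0.756, limma) and Camk2a (-0.28, adjusted p = 0.781, limma). Of the late response genes, which follow the immediate early genes, 12 and 11 were tested, and 0 had an unadjusted p under 0.05 in either tissue. The neuropeptide precursor Vgf was among the 2 with the smallest p-values in both tissues, with a log2 fold change of 0.19 in the hippocampus (adjusted p = 0.9996, limma) and -0.47 in the cortex (adjusted p = 0.795, limma). The others were Gpr3 (-0.14) in the hippocampus and Scg2 (0.10) in the cortex.

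The spread between arrays of one group was wide for most of these genes. The standard deviation within groups lay above the median of all probes (0.14 in each tissue) for all 8 genes in both tissues on the scale used here. That count was 7 in the hippocampus under quantile normalization, median centring and neqc, and 6 in the cortex with median centring, where Egr1 and Fosb lay below the median. It lay above the 95th percentile of all tested probes for 4 of 8 genes in the hippocampus (Arc, Junb, Dusp1 and Egr1) and for 7 of 8 in the cortex, all but Fosb. Arc had a standard deviation of 0.66 in the hippocampus, above that of 99.5% of probes, and 0.81 in the cortex, above that of 99.8%. Fos and Dusp1 were at 0.54 each in the cortex, above 99.2% of probes. Fosb, a dim probe with compressed values, was the least variable, at 0.15 and 0.14.

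**Figure D3:**
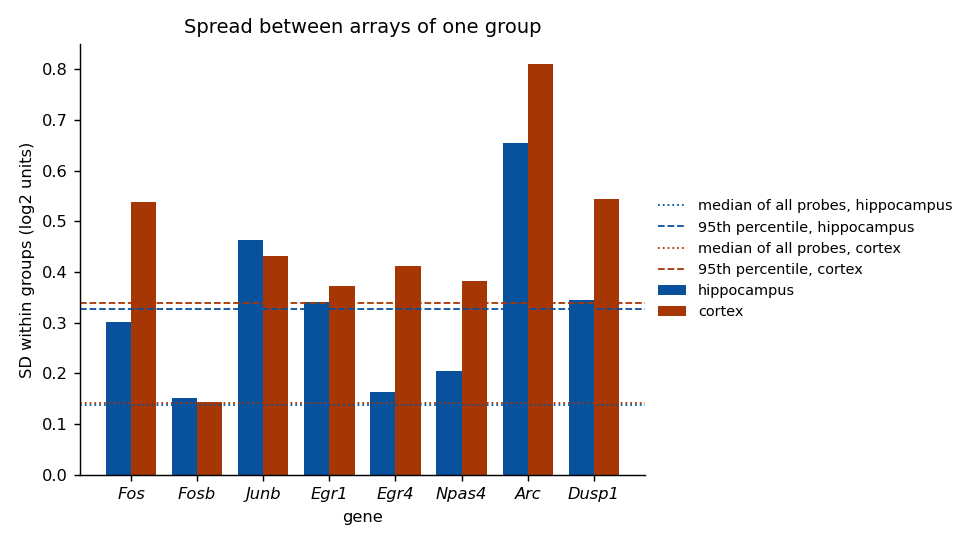
Standard deviation within groups (vertical axis, log2 units, bars from 0) of each gene over the 6 arrays of a tissue, with the median and the 95th percentile of all tested probes as dotted and dashed lines. The bars of Arc reach 0.66 (hippocampus) and 0.81 (cortex), and Fosb lay near the median of all probes in both.

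This spread did not rest on a single array or scaling for Arc, whose standard deviation exceeded the 95th percentile of all probes in either tissue whichever array was left out, and also under quantile normalization, median centring and neqc. For Egr1 it depended on the scaling. Its standard deviation exceeded that of 95.6% of hippocampal and 96.5% of cortical probes on the scale used here, and 67.2% and 42.0% with median centring. The number of genes above the 95th percentile was between 2 and 5 for hippocampal arrays and between 5 and 7 for cortical arrays, depending on which array was left out. It was 3 in each tissue with median centring.

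The genes deviated together from one array to the next. In cortex vehicle replicate 1, 7 of the 8 genes had the lowest level of their group, with a mean deviation from the group mean of -0.49 over the 8 genes. Cortex AMI replicate 1 held the highest level for 7 of 8 genes, with a mean deviation of 0.38. Hippocampus AMI replicate 3 was the highest of its group for 7 genes (mean deviation 0.30) and hippocampus vehicle replicate 2 for 6 (0.25). Hippocampus vehicle replicate 1 was the lowest of its group for 6 genes (-0.23), while Egr1 was highest there. Each deviation is taken from the mean of its own group, so that high and low arrays in every group follow from the centring.

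**Figure D4:**
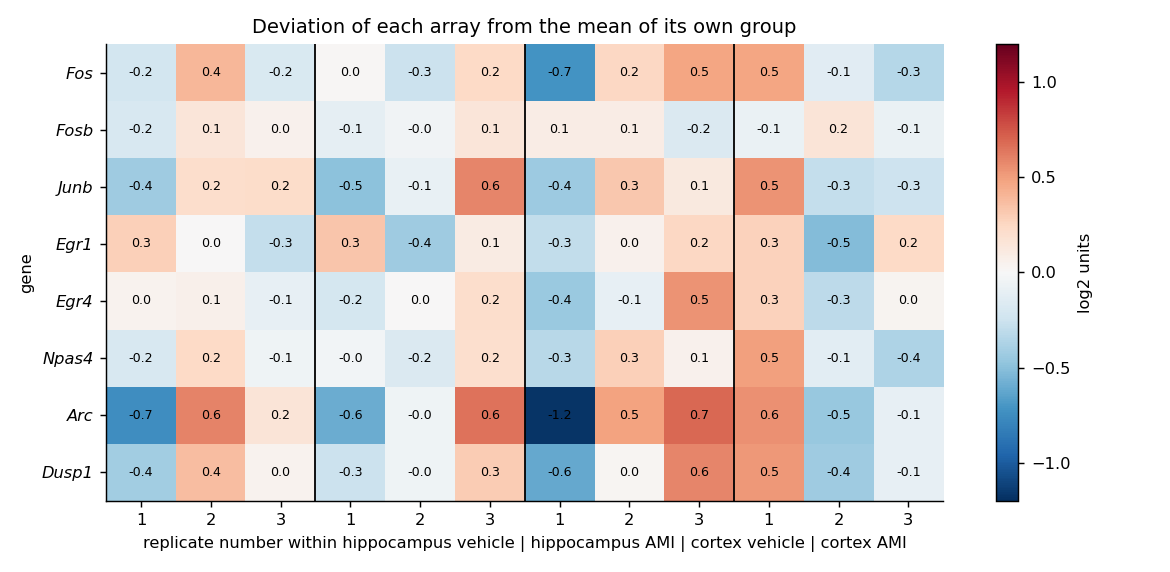
Deviation of each gene (rows) on each array (columns, by group and replicate number) from the mean of its own group, in log2 units, as colour and number. Cortex vehicle replicate 1 was low and cortex AMI replicate 1 high for 7 of 8 genes each, and Fosb followed the others least.

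As a description over 12 arrays, with array and dissection shared by all probes, the deviations of Dusp1 had a Pearson correlation of 0.94 with the mean of the other 7 genes. The value was 0.92 for Arc, 0.90 for Fos, 0.84 for Junb, 0.82 for Npas4 and 0.76 for Egr4. Egr1 had 0.33 and Fosb -0.05. With quantile normalization Egr1 had 0.72 and with median centring 0.85, so that its low value depended on the scaling. Fosb had -0.13 with quantile normalization and 0.38 with median centring.

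Of all probes of other genes tested in both tissues, the 5 whose deviations were most like the mean deviation of these genes were those of Unc84a, a nuclear envelope gene (r = 0.97), Egr2 (0.97), LOC100047762, a predicted gene (0.91), Rarb, a retinoic acid receptor (0.89), and Ctrl, a chymotrypsin-like protease (0.89). Egr2 is itself an immediate early gene of the Egr family and was not among those chosen. Its level was -0.52, 0.27 and 0.28 in cortex vehicle and 0.29, -0.14 and -0.18 in cortex AMI. As for Arc, cortex vehicle replicate 1 was the lowest and cortex AMI replicate 1 the highest of its group, while the lowest cortex AMI array was replicate 3 for Egr2 and replicate 2 for Arc. In the hippocampus Egr2 was at -0.78, -0.28 and -0.67 after vehicle and -0.68, -0.61 and -0.32 after AMI. Cortex vehicle replicate 1 deviated by 0.02 for the neuronal list, against -0.49 for the immediate early genes. Hippocampal replicates 1, which stood apart over all probes, deviated by 0.19 and 0.31 for the neuronal list, upwards, while the immediate early genes lay below their group means by 0.23 and 0.17 on average. The neuronal list is bright, with mean levels from 4.83 to 5.31 on the hippocampal AMI arrays. Both replicates 1 had the smallest SD of log2 signals in their tissue (1.53 and 1.51), and the scaling therefore raised bright probes most on them. Egr1, also bright, changed its order with the scaling. The neuronal deviations were not computed on another scale, so that opposite movement is not shown. The part of array quality in the deviations of the immediate early genes was not tested.

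Hippocampus and cortex were then compared within each treatment, in one fit of all 12 arrays. Egr1, Fos and Dusp1 were lower in the hippocampus in vehicle-treated and in AMI-treated mice. In vehicle-treated mice Egr1 was at 4.41 ± 0.28 in the hippocampus and 5.66 ± 0.28 in the cortex (SD, n = 3), a log2 difference of -1.25 (standard error 0.24, adjusted p = 0.00257, limma). After AMI it was at 4.403 ± 0.39 and 5.51 ± 0.45, a log2 difference of -1.11 (adjusted p = 0.00515, limma). The hippocampal arrays all lay below the cortical arrays in both treatments.

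Fos differed by -0.97 in vehicle-treated mice (standard error 0.29, adjusted p = 0.0282, limma) and by -0.84 after AMI (adjusted p = 0.0476, limma). Dusp1 differed by -0.95 (standard error 0.30, adjusted p = 0.0365, limma) and by -1.08 (adjusted p = 0.0191, limma). For both genes the tissues overlapped in vehicle-treated mice and did not overlap after AMI. These 3 of 8 genes called in vehicle-treated mice stood against 25.1% of 13677 probes called in either direction, and the 3 of 8 called after AMI against 27.0%.

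The remaining genes did not pass on the scale used here. Fosb was called in vehicle-treated mice under quantile normalization, neqc and array weights. Egr4 was called after AMI under those settings, in a fit of the 6 AMI arrays alone and without cortex AMI replicate 2. In vehicle-treated mice Egr4 was called without cortex vehicle replicate 1. All 8 estimates were below 0 in both treatments, although median centring gave values above 0 for Junb (0.20), Arc (0.079) and Fosb (0.053) after AMI, and array weights for Arc in vehicle-treated mice (0.22) and Fosb after AMI (0.11). Their median was -0.47 in vehicle-treated and -0.39 in AMI-treated mice, against 0.04 and 0.02 over all probes. Arc differed by -0.50 (95% interval -1.54 to 0.54) and -0.22 (-1.26 to 0.82), and Fosb after AMI by -0.0036 (-0.26 to 0.25). Egr4 after AMI, at -0.56 (95% interval -1.02 to -0.10), had an adjusted p of 0.0696 with limma, and its tissues did not overlap. These tissue contrasts compare tables from different software versions as well as tissues, which cannot be told apart.

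Egr1 passed with each array left out in turn. Dusp1 and Fos did not: in vehicle-treated mice both lost the call without hippocampus vehicle replicate 1 or 3 or cortex vehicle replicate 2 or 3, where Egr1 was the 1 gene left. After AMI, Dusp1 lost it without hippocampus AMI replicate 1 or 2 or cortex AMI replicate 1, and Fos without any array but cortex AMI replicate 3, with adjusted p-values up to 0.0932 and 0.196 from limma. Median centring, which moved the median of all probes to 0.18 and 0.20, gave Egr1 a log2 difference of -0.60 (adjusted p = 0.0410, limma) and -0.48 (adjusted p = 0.0757, limma), and called neither Fos nor Dusp1. With the methods' t-test, 0 of the 8 genes passed after adjustment in either treatment, and 1 and 3 had an unadjusted p under 0.05. Over all 13677 probes that test gave 4109 in vehicle-treated mice and 4534 after AMI at an unadjusted p under 0.05.

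**Figure D5:**
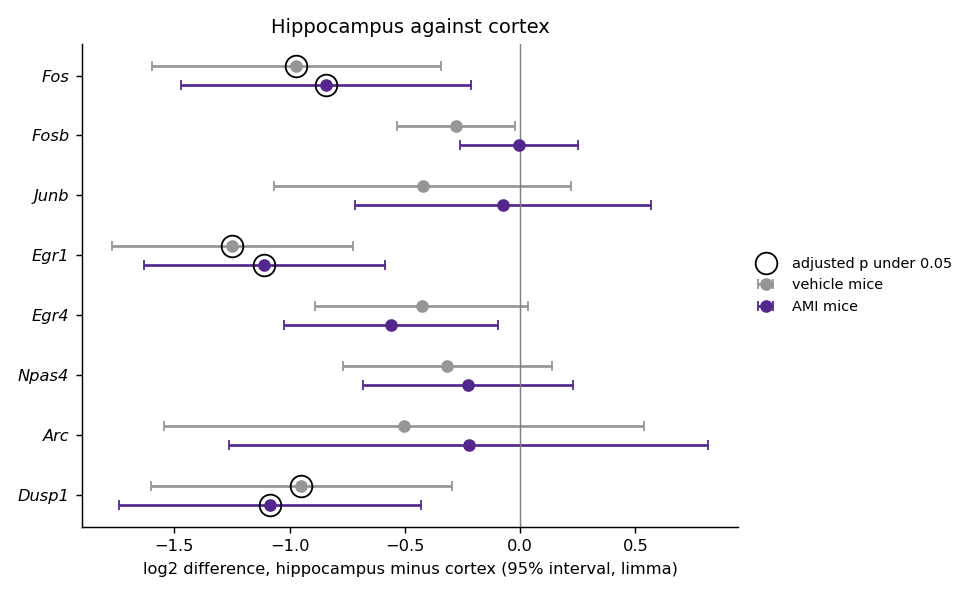
Log2 difference of each gene, hippocampus minus cortex (horizontal axis, points with 95% intervals from limma, 3 arrays per group), in vehicle-treated and AMI-treated mice; rings mark an adjusted p under 0.05. Egr1, Fos and Dusp1 carry rings in both treatments, and the point of Fosb after AMI lies at 0.

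Other immediate early genes differed between the tissues in both directions. Of 23 tested, 5 were called higher and 4 lower in the hippocampus of vehicle-treated mice, and 4 and 4 after AMI. Over all probes 15.0% were called higher and 10.1% lower in vehicle-treated mice, and 15.1% and 11.9% after AMI, and the counts of the pathway lists are descriptions beside these shares. Jun, which encodes the partner of Fos, was higher in the hippocampus by 1.47 (adjusted p = 2.35e-06, limma) and 1.36 (adjusted p = 4.51e-06, limma), opposite to the estimate of Junb. Gadd45g, a stress-response gene, was higher by 1.19 and 1.02, and the zinc finger factor Klf6 differed by -0.54 and -0.60, all 4 called. Of 24 upstream genes, 3 were called higher and 1 lower in vehicle-treated mice, and 5 and 4 after AMI. The activity-dependent transcription factor Mef2c differed by -2.13 in both, and the NMDA receptor subunit Grin1 was higher by 0.83 and 0.66. Of 12 late response genes, 0 were called higher and 4 lower in vehicle-treated mice, and 1 and 3 after AMI. Pdyn and Tac1, neuropeptide precursors, had the lowest of these differences, -1.80 and -1.60 in vehicle-treated mice and -1.72 and -1.64 after AMI. Both are also expressed in striatal neurons, and the striatal list had mean levels from 0.31 to 0.82 on hippocampal and from 1.88 to 2.48 on cortical arrays. The part of striatal tissue in these differences was not tested.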

How the data were processed

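Each sample, hippocampus or cortex, was hybridised to 1 Illumina bead array. For each probe the authors deposited a linear intensity, its bead signal averaged over beads, without normalization or background correction, so that fold changes of dim probes are compressed. Beside it the authors deposited the scanner software's detection p-value. Per the file headers and the submitters' processing notes, the software was BeadStudio 3.4 for the hippocampus and GenomeStudio 1.1.1 for the cortex. The genome build is not given in the sources used here.

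As in the study's z normalization, the array mean was subtracted from log2 signals (floor 1) and the result divided by the array's SD. It was then rescaled to log2 units with 1.60, the mean SD of the arrays. That SD ran from 1.42 to 1.85, and the scaling therefore moves bright probes most. Probes detected (p of 0.05 or less) on at least 3 arrays of a tissue entered its tests, probes of either tissue the tissue contrasts and probes of both the interaction. limma 3.58.1 in R 4.3.3 (lmFit, eBayes) was fitted over all such probes, with Benjamini-Hochberg adjustment at 0.05, on 6 arrays for treatment and on 12 otherwise. The fits were tested on simulated data. With 3 arrays a group, the smallest exact permutation p is 0.1, and that test was not used. Precision is limited by the number of arrays.

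Genes, lists and comparisons were chosen with earlier results of these data known. All 10 genes are named. From pathway lists at most 3 called genes per direction are named, or the 2 with the smallest p where none was called, and Per1 in addition. Same-numbered AMI and vehicle arrays had deviations that correlated at 0.61, 0.30 and 0.29 in the hippocampus, each highest with its own number. In the cortex such arrays correlated at -0.06, 0.33 and 0.33, with replicates 2 and 3 highest with their own number. Same-numbered arrays of the tissues correlated at -0.33 to 0.08. The labels give no pairing, and these correlations do not settle whether the numbers pair samples. The tests reported here leave the replicate number out, and the fit with it as a block is an alternative. Alternatives were quantile normalization, median centring, neqc, 2 other detection filters, a robust trend, array weights, the replicate block, other arrays in the fit, the study's cutoffs, the methods' t-test and leaving out single arrays. Leaving out both hippocampal arrays numbered 1, and the alternatives for spread and correlations, were chosen after seeing the data.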

Additional observations from a re-analysis of the deposited data

Results flagged for a closer look

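Nr4a2, an orphan nuclear receptor among the other immediate early genes, had AMI arrays on opposite sides of the vehicle arrays in the tissues, and the difference between its changes was -0.65 on the log2 scale (hippocampus minus cortex, standard error 0.15). The adjusted p of that difference was 0.9999 with limma over 12430 probes, so it did not pass. Its hippocampal levels were 0.73, 0.78 and 0.76 after vehicle and 0.36, 0.39 and 0.73 after AMI, where AMI replicate 3 and vehicle replicate 1 were alike to the second decimal. Its cortical levels were 0.44, 0.50 and 0.57 after vehicle and 0.93, 0.93 and 0.83 after AMI. None of the chosen genes was flagged, and groups of 3 arrays are too small for the test of single outlying samples.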

How the results depend on the processing

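Of the 8 genes, 0 were called after AMI in either tissue and for the interaction under every alternative run. The smallest adjusted p was 0.0777 with limma, in the cortex with array weights. The study's cutoffs were applied within each tissue to the limma p-values of the scale used here. There 0 of the 8 genes had an unadjusted p under 0.05, so that the count of 0 under these cutoffs was fixed in advance. The median of the 8 in the cortex was 0.45 with array weights, against -0.07. The count called between tissues, 3 in each treatment, was 1 in vehicle-treated mice and 0 after AMI with median centring, 1 in vehicle-treated mice and 4 after AMI with only the 6 arrays of the treatment, 4 in both with quantile normalization and with neqc, 2 (Egr1 and Fosb) and 4 with array weights, and 0 in both with the methods' t-test. Without a detection filter, and with the robust trend, the count was 2 in both treatments. Dusp1 lost its call there in vehicle-treated mice, and Fos after AMI. With each array left out the count ran from 1 to 4 in vehicle-treated mice and from 1 to 3 after AMI, and the median in vehicle-treated mice from -0.87 to -0.33. With the replicate block the counts were 0, 0, 0, 3 and 3, and it changed no call of the 8 genes, while 1063 of all hippocampal probes had an unadjusted p under 0.05 against 309 without it; the smallest adjusted p after AMI in the hippocampus was 0.809 (limma). Between tissues, 3433 of all 13677 probes were called in vehicle-treated mice and 3694 after AMI. Those counts were 2422 and 2995 with median centring, and 2743 and 3573 with only the 6 arrays of the treatment. They were 3988 and 4424 with quantile normalization, 3913 and 4335 with neqc, and 5104 and 6787 with array weights. With the t-test they were 1112 and 1531, and with an array left out 2408 to 2901 and 2237 to 3424. The cause of these changes was not tested.

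None of the log2 fold changes whose sign turned was called on the scale used here. Quantile normalization gave Egr1 0.048 in the hippocampus after AMI, Npas4 -0.047 and Fos -0.0092 in the cortex after AMI. Median centring gave Egr4 0.050, Dusp1 0.014 and Egr1 0.13 in the hippocampus after AMI, Egr1 0.017 in the cortex after AMI, Junb 0.20, Arc 0.079 and Fosb 0.053 between tissues after AMI. neqc gave Egr1 0.049 in the hippocampus after AMI, Npas4 -0.087 in the cortex after AMI. Array weights gave Egr4 0.057 in the hippocampus after AMI, Junb 0.16, Arc 0.61 and Egr1 0.16 in the cortex after AMI, Npas4 -0.33, Arc -0.46, Egr1 -0.17 and Fos -0.54 for the interaction, Arc 0.22 between tissues in vehicle-treated mice, Fosb 0.11 between tissues after AMI. With arrays left out in turn, the ranges of such genes were Arc -0.25 to 0.43, Dusp1 -0.27 to 0.13, Egr1 -0.17 to 0.21, Egr4 -0.15 to 0.065, Fosb -0.017 to 0.15 and Junb -0.24 to 0.30 in the hippocampus after AMI, Arc -0.74 to 0.19, Dusp1 -0.23 to 0.37, Egr1 -0.30 to 0.11, Egr4 -0.13 to 0.36, Fos -0.32 to 0.27 and Npas4 -0.23 to 0.20 in the cortex, Arc -0.094 to 0.87, Dusp1 -0.43 to 0.17, Egr1 -0.12 to 0.35, Egr4 -0.40 to 0.089, Fos -0.11 to 0.49 and Npas4 -0.093 to 0.34 for the interaction, and Arc -0.55 to 0.076, Fosb -0.075 to 0.075, Junb -0.36 to 0.20 and Npas4 -0.41 to 0.020 between tissues after AMI. Without both hippocampal arrays numbered 1, Egr4 was at 0.087 in the hippocampus after AMI.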
